A study of Sus scrofa with 16 samples.

Results

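The solute carrier (SLC) transporters were followed in subcutaneous fat of young pigs as the probes that the array names SLC followed by a family number. SLC2A1, SLC2A4 and SLC27A1 were left out, and a probe was kept if 8 or more of the 16 arrays read it well above background. Of 184 such probes for 94 genes, 144 probes for 75 genes were kept, among 32097 kept of 43603 probes in all. Subcutaneous adipose tissue came from 16 pigs of 20 kg body weight fed ad libitum, 8 of a low-RFI line and 8 of a high-RFI line, with 1 one-colour array per pig. RFI, residual feed intake, is the feed a pig eats beyond what its growth and maintenance predict, and the study set the lines side by side to see what selection on it changed in fat. The labels number the pigs 1 to 8 in each line and do not say what sets replicates 1 to 4 apart from replicates 5 to 8. Each of the 4 slides held 1 pig of each line from each of these replicate sets, so line, replicate set and slide were balanced. P-values measure the spread between these pigs.

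SLC proteins carry nutrients, ions, vitamins and metabolites across the cell surface and the membranes of organelles, each family having its own cargo. In fat they take up the glucose, fatty acids and amino acids that are stored or burned, export lactate, and move metabolites in and out of mitochondria. Zinc, iron and bicarbonate are kept in balance by further families, and nucleotide sugars reach the Golgi through still others.

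The tissue was fat by its markers. All 13 adipocyte markers measured were kept, and the adipokine gene ADIPOQ lay between 7.89 and 8.68 on the 16 arrays. Values are log2 signals relative to the 75th percentile of the array, so 0 is that percentile and 1 is a doubling. Skeletal muscle markers were far higher on the low-RFI replicate 8 array (mean of the 14 kept markers 7.70 above their average over arrays) and less so on low-RFI replicate 6 (1.27) and high-RFI replicate 7 (0.59). The mean of the 7 epithelial markers, on the same measure, was highest on high-RFI replicates 6 (2.45), 2 (1.36) and 7 (1.29), although EPCAM was high on replicates 6 and 2 only. Between 68.7% and 80.3% of spots per array were well above background.

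A probe is a 60-base oligonucleotide, and the sequences below are from genes that the comparison of the replicate sets turns on, including some probes that did not pass. They are shown because several genes were read by more than 1 probe, and independent sequences of a gene can be checked against each other. None of the following 12 shares a run of 16 bases with another probe on the array, so all are in lower case. They are a selection of the probes that are open to translation in at least 1 forward frame.
SLC11A2, A_72_P442096: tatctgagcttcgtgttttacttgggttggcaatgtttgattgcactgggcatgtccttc
SLC27A3, A_72_P278149: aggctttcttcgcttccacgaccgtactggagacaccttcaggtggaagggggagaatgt
SLC35A3, A_72_P077331: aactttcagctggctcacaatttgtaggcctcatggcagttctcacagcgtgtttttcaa
SLC35A3, A_72_P538408: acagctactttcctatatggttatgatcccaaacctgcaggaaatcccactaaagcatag
SLC30A9, A_72_P440371: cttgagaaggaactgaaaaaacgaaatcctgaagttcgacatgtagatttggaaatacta
SLC30A9, A_72_P456413: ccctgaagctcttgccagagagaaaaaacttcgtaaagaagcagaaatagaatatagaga
SLC30A5, A_72_P266804: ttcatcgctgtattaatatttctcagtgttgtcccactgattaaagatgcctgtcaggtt
SLC30A5, A_72_P551437: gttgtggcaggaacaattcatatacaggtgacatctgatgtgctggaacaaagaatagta
SLC41A2, A_72_P012776: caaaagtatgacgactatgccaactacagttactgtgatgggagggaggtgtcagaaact
SLC16A1, A_72_P280129: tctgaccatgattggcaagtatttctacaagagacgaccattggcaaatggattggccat
SLC16A1, A_72_P294944: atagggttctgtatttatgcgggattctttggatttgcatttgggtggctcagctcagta
SLC16A1, A_72_P529580: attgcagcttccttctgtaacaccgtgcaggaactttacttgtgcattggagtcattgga

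The transporter classes found in fat covered nearly the whole array content for metals, mitochondria and nucleotide sugars, and less of it for amino acids and phosphate. Of the genes on the array, 15 of 16 metal ion transporters, 6 of 6 mitochondrial carriers and 5 of 5 nucleoside and nucleotide sugar transporters were kept. So were 14 of 17 sodium, proton and anion exchangers, 13 of 19 amino acid and peptide transporters and 7 of 9 sugar and sodium-solute transporters. The count was 2 of 5 for phosphate and vesicular transporters. Of the 75 genes, 66 had a probe well above background on all 16 arrays. With each gene read by its kept probe of highest mean signal, 22 genes lay at or above the 75th percentile on all 16 arrays, 38 lay below it on all 16, and 15 fell on both sides.

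**Figure D1:**
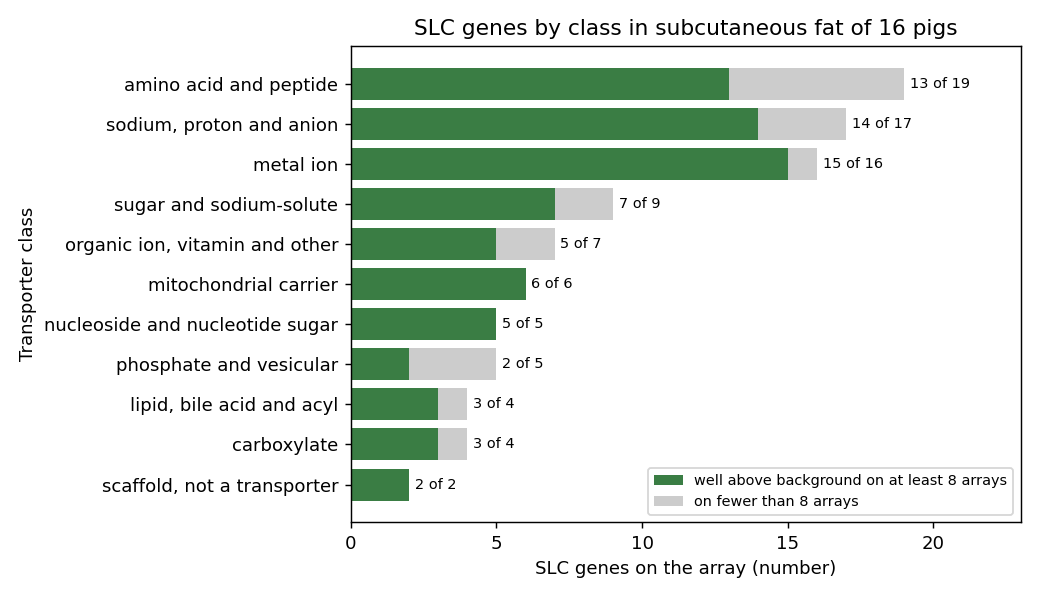
Bars give the number of SLC genes on the array in each transporter class, split into genes with a probe well above background on at least 8 of 16 arrays (green) and on fewer (grey). Metal ion transporters reached 15 of 16 genes, and phosphate and vesicular transporters 2 of 5.

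The 19 genes that were not kept came from several families. SLC15A1, the intestinal peptide transporter, was above background on at most 2 arrays by either of its probes. SLC6A14 and SLC5A11 were not well above background on any array, and neither was SLC2A2, the glucose transporter of liver and pancreatic islets. The same held for SLC16A3, a lactate exporter of glycolytic cells, and SLC8A3, a sodium-calcium exchanger. None of 4 probes for SLC1A1, a glutamate transporter, passed on more than 2 arrays. The kidney and epithelial phosphate transporters SLC34A1 and SLC34A2 had a probe above background on 4 arrays each, all of replicates 1 to 4. A second probe for the iodide transporter SLC5A5 did so on 5 arrays, also all of replicates 1 to 4. The median share of spots above background was 76.2% in replicates 1 to 4 and 74.1% in replicates 5 to 8, and its part in these detections was not tested.

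Signals are described within each gene, because the brightness of a probe also depends on its own sequence. Among amino acid transporters, SLC1A5, which takes up glutamine, ranged from 5.37 to 6.58 over the 16 arrays. SLC38A3, a glutamine transporter of the system N type, ranged from 2.0 to 3.75. By these brightest probes both were above the array's 75th percentile in every pig. The other kept SLC38A3 probes had means of -4.58 and -4.57, and the file describes all of the SLC38A3 probes as SLC38A5. Among mitochondrial carriers, the adenine nucleotide exchanger SLC25A6 ranged from 7.30 to 7.80 and the phosphate carrier SLC25A3 from 6.32 to 7.02. SLC16A1, which exports and takes up lactate, ranged from -0.56 to 1.13. SLC27A3, of the fatty acid transport and acyl-CoA synthetase family, ranged from 1.82 to 3.46. For the anion exchanger SLC4A2 the range was 4.24 to 4.63, and for the potassium-chloride cotransporter SLC12A4 it was 0.29 to 0.91. The GDP-fucose transporter family member SLC35C2 ranged from 0.04 to 0.75, the zinc transporter SLC30A7 from 2.64 to 3.08, and SLC22A4, which carries ergothioneine, from 0.39 to 0.98. The glucose transporter SLC2A8 ranged from 0.88 to 2.17, and SLC9A3R2, a scaffold rather than a transporter, from 1.98 to 3.13. The median standard deviation over the 16 arrays was 0.33 for the 75 genes. It was under 0.25 for 21 of them and over 0.8 for 6.

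The highest signals of the sugar and metal classes came from probes whose sequence recurs on the array. The probe read as SLC2A11, a fructose and glucose transporter, ranged from 6.40 to 6.75, and the probe read as SLC39A14, a zinc and iron importer, from 5.95 to 6.45. Each shared runs of 16 bases with 12 probes of other names. Stretches of 30 bases from both probes are printed to show the run they have in common, which is in capitals.
SLC2A11, bases 21 to 50: gaacccaACTAGTATCCATGAGGatgtggg
SLC39A14, bases 18 to 47: gaacctgACTAGTATCCATGAGGttgtgga
The other kept probe for SLC2A11 had a mean of -5.15 and the other probe for SLC39A14 a mean of -3.43, and residual r between the 2 probes was -0.29 for SLC2A11 and 0.65 for SLC39A14. In all, 20 of the 144 probes shared a run of 16 bases with a probe of another name, 10 of them on the opposite strand only. For the 10 that shared it on the same strand the signal is uncertain as to gene, and the values given for SLC2A11, SLC39A14, SLC4A2, SLC3A2, SLC12A5 and SLC25A25 come from such probes.

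Between replicates 5 to 8 and replicates 1 to 4, SLC11A2, SLC27A3 and SLC34A3 were higher in replicates 5 to 8, and SLC35A3, SLC30A9 and SLC30A5 were lower. These were the 6 of 75 genes that passed by their brightest probe. Over probes, 15 of 144 passed a limma adjusted p of 0.05, with line as a second term (10.4%), against 5.18% of all 32097 probes. Of these, 4 were higher (2.78%, against 1.99% of all probes) and 11 were lower (7.64%, against 3.18%). Probes of 1 gene are not independent, and 8 genes supplied the 15. The median difference was -0.10 for the 144 probes and -0.03 for all probes, and at an unadjusted p under 0.05 the shares were 25.7% and 23.5%. The difference was above 0 for 38.2% of SLC probes and 45.2% of all.

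**Figure D2:**
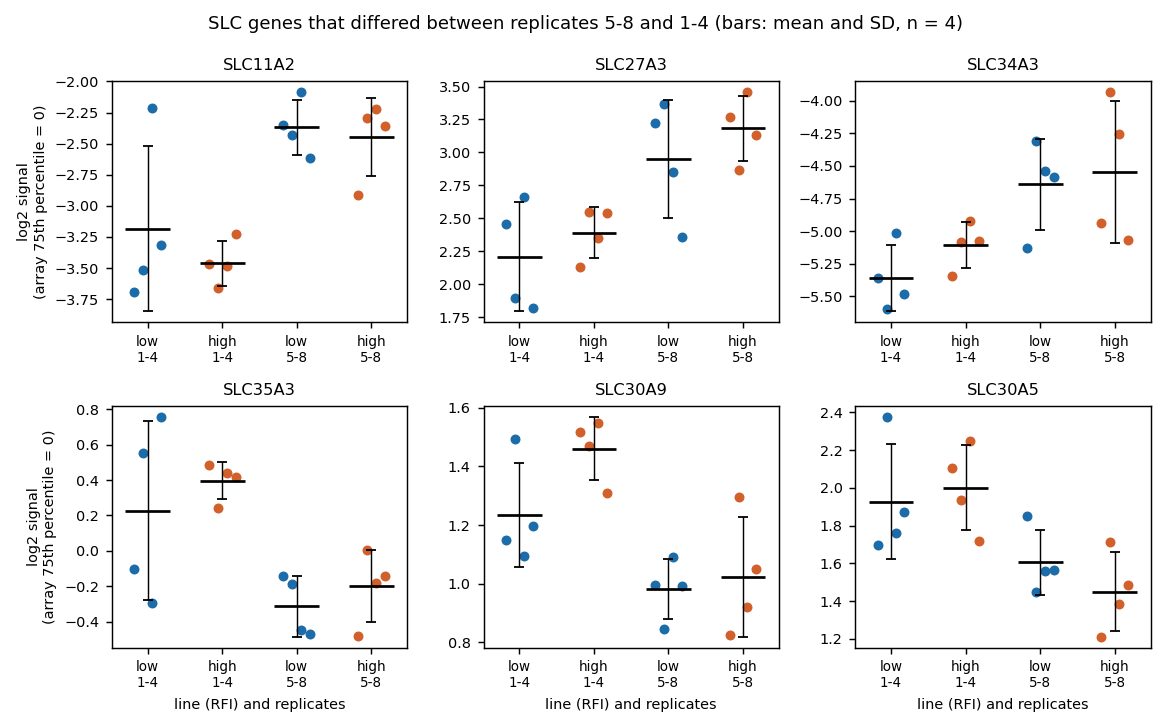
Each panel plots the log2 signal of 1 gene's brightest probe relative to the array's 75th percentile, with 1 point per pig, by line (low-RFI blue, high-RFI orange) and replicates 1-4 or 5-8, and bars for the mean and SD of 4 pigs. SLC11A2, SLC27A3 and SLC34A3 were higher in replicates 5 to 8, SLC35A3, SLC30A9 and SLC30A5 lower, and low-RFI replicate 3 (-2.22) lay with replicates 5 to 8 for SLC11A2.

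SLC11A2 encodes DMT1, the proton-coupled importer that brings ferrous iron into cells and out of endosomes. Its signal in replicates 1 to 4 ran from -3.69 over a median of -3.48 to -2.22, and in replicates 5 to 8 from -2.91 over -2.35 to -2.08. Low-RFI replicate 3 at -2.22 was the one pig of replicates 1 to 4 that reached the later range, and the other 7 did not overlap it. The rise was 0.91 (SE 0.18, 1.88-fold, limma adjusted p = 0.017), and it was positive on each of the 4 slides (0.39 to 1.30). A second SLC11A2 probe on the array was not kept, so the rise rests on 1 probe. TFRC, the transferrin receptor, from the list of partners and regulators, was also higher by 0.88 (SE 0.23, limma adjusted p = 0.042). IREB2, an iron-responsive RNA-binding protein, differed by 0.30 (adjusted p = 0.061), and the ferritin gene FTH1 by -0.12 (adjusted p = 0.33). IREB2 and FTH1 did not pass and are named outside the naming rule for that list.

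SLC27A3 and SLC34A3 were the other genes that rose. SLC27A3 ran from 1.82 over a median of 2.40 to 2.66 in replicates 1 to 4 and from 2.36 over 3.18 to 3.46 in replicates 5 to 8, a rise of 0.77 (SE 0.16, 1.70-fold, limma adjusted p = 0.020). Low-RFI replicate 8 at 2.36 was the lowest of replicates 5 to 8, and the other 7 of them lay above all of replicates 1 to 4. Its second probe, printed above, rose by 0.52 (adjusted p = 0.047), and the pair followed each other over arrays with a residual r of 0.96. SLC34A3, a sodium-coupled phosphate transporter best known from kidney, was dim, with medians of -5.22 in replicates 1 to 4 and -4.56 in replicates 5 to 8. Its rise was 0.64 (SE 0.17, limma adjusted p = 0.040).

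SLC35A3 brings UDP-N-acetylglucosamine into the Golgi for glycan synthesis. By its brightest probe it ran from -0.30 over a median of 0.43 to 0.76 in replicates 1 to 4 and from -0.48 over -0.18 to 0.00 in replicates 5 to 8. Low-RFI replicates 1 (-0.10) and 3 (-0.30) lay within the later range, and the other 6 of replicates 1 to 4 lay above it. The fall was -0.57 (SE 0.14, 1.48-fold, limma adjusted p = 0.031). Its 3 probes, which share no run of 16 bases, gave differences between -0.58 and -0.54, and all passed.

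Zinc exporters were 2 of the genes that fell. SLC30A9, a zinc transporter of mitochondria that was first described as a nuclear coactivator, ran from 1.09 over 1.39 to 1.55 in replicates 1 to 4 and from 0.82 over 0.99 to 1.29 in replicates 5 to 8. The sets overlapped through high-RFI replicate 6 (1.29), and the other 7 of the later set lay below all of the earlier one. The fall was -0.35 (SE 0.09, limma adjusted p = 0.037) by that probe and -0.43 (adjusted p = 0.017) by A_72_P440371, whose replicate sets did not overlap. SLC30A5, a zinc transporter of the early secretory pathway, had medians of 1.90 and 1.52 and fell by 0.44 (SE 0.12, limma adjusted p = 0.046). Its second probe differed by -0.45 (adjusted p = 0.054).

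Values that did not pass were -0.27 for the zinc importer SLC39A1 (limma adjusted p = 0.067), -0.30 for the ascorbate transporter SLC23A2 (adjusted p = 0.056), whose probe the file describes as SLC23A1, and -0.33 for the potassium-chloride cotransporter SLC12A5 (adjusted p = 0.074). SLC23A2 and SLC12A5 turned to 0.036 and 0.031 under normexp background correction. Of the 28 metal ion probes, 5 from 4 genes passed (against 5.18% of all probes), 1 higher (1.99% of all) and 4 lower (3.18% of all). SLC41A2, a magnesium transporter, was the fourth lower probe by A_72_P012776, at -0.64 (SE 0.14, adjusted p = 0.021), with no overlap of the replicate sets. Its brighter probe differed by -0.49 (adjusted p = 0.057). Sets without overlap were found for 2 of the 144 probes (1.39%), against 0.393% of all probes.

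SLC16A1, the monocarboxylate transporter MCT1, was read by 7 probes. A_72_P294944 ran from -1.28 over -0.52 to -0.17 in replicates 1 to 4 and from -1.74 over -1.17 to -0.90 in replicates 5 to 8. Low-RFI replicate 3 was the lowest of the earlier set, and its values lay with the later one for the 3 printed probes. Of the 7, 4 fell by 0.69 to 0.79 (limma adjusted p = 0.025 to 0.047). The other 3, which share runs of sequence with each other and include the brightest, differed by -0.53, -0.35 and -0.32 (adjusted p = 0.20, 0.29 and 0.33). The 7 probes followed each other over arrays with a median residual r of 0.84. By the brightest probe SLC16A1 is not counted among the genes that changed, and it is named here after its values were seen.

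**Figure D3:**
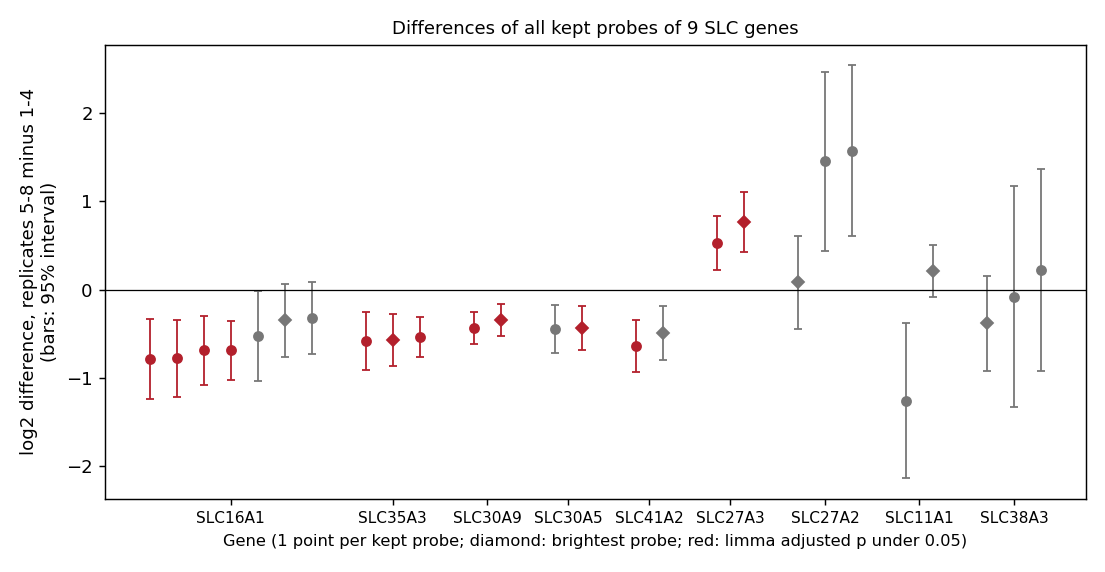
Points give the log2 difference, replicates 5 to 8 minus replicates 1 to 4, of every kept probe of 9 SLC genes, with 95% intervals, diamonds for the brightest probe and red for a limma adjusted p under 0.05. All 7 SLC16A1 and all 3 SLC35A3 probes lay below 0, while the 2 SLC11A1 probes (-1.26 and 0.21) and the 3 SLC27A2 probes did not give 1 value.

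Of the 37 genes with several kept probes, 27 had probes that gave this difference with the same sign. SLC11A1, the metal transporter NRAMP1 of macrophage phagosomes, had probes at -1.26 (SE 0.41, limma adjusted p = 0.083) and 0.21 (adjusted p = 0.38), with a residual r of -0.07 between them. SLC27A2, a very long chain acyl-CoA synthetase and fatty acid transporter, had a brightest probe at 0.08 (adjusted p = 0.88) and dim probes at 1.57 and 1.45 (adjusted p = 0.057 and 0.083). SLC38A3 had 3 probes, of which 2 are the same sequence, shown in capitals.
SLC38A3, A_72_P387033: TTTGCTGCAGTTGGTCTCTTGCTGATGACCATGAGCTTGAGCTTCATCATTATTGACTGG
SLC38A3, A_72_P485451: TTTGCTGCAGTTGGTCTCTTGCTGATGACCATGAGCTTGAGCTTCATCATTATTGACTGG
SLC38A3, A_72_P553641: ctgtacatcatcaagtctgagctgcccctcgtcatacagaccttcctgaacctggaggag
The identical pair differed from each other by a median of 0.37 and at most 1.94 on an array, near background. The file's descriptions call all 3 SLC38A5, so the gene they read is uncertain.

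Within 1 line the 6 genes gave differences of the same sign in both lines, and no SLC probe passed (0 of 144 in each, against 0% of all probes in low-RFI and 1.33% in high-RFI pigs). The 6 genes were chosen by their difference over both lines together, so the shared sign follows largely from that choice. It is a description only, as are the slide differences given for SLC11A2. SLC11A2 differed by 0.81 (SE 0.26) in low-RFI pigs and by 1.01 (SE 0.26) in high-RFI pigs. SLC35A3 differed by -0.54 (SE 0.20) and -0.60 (SE 0.20). The counts past an unadjusted limma p of 0.05 were 21 of 144 in low-RFI pigs (14.6%, against 11.4% of all probes) and 37 in high-RFI pigs (25.7%, against 20.5%). In both lines 4 pigs stood against 4.

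The calls between replicate sets depended on which arrays were used. With 1 array left out the 15 probes became 5 to 28, the lowest count without low-RFI replicates 2 or 4 or high-RFI replicate 3 and the highest without low-RFI replicate 3. The count fell below 10 in 10 of these fits, also without low-RFI replicates 6 (9) or 7 (7) and high-RFI replicates 1 (6), 2 (8), 4 (6), 7 (6) or 8 (6). SLC11A2 and SLC27A3 passed in 16 of 16 such fits, SLC35A3 in 7, SLC30A9 in 5, SLC34A3 in 4 and SLC30A5 in 3. Without the muscle-marker arrays (low-RFI 6 and 8, high-RFI 7) 1 probe passed, and without high-RFI 2 and 6, where EPCAM and CDH1 were high, 4 passed. Both exclusions were chosen after seeing the data. With normexp background correction 0 SLC probes passed, and with array weights 31 probes did. Shares over all probes are not given for the fits without arrays or with array weights. The SLC counts alone do not show a change particular to SLC probes. Under normexp the differences were 0.46 for SLC11A2 and 0.23 for SLC34A3, each over 1.5 times smaller, 0.71 for SLC27A3, -0.50 for SLC35A3, -0.32 for SLC30A9 and -0.39 for SLC30A5. The muscle list ran from -1.04 to -0.35 in replicates 1 to 4 and from -0.97 to 7.70 in replicates 5 to 8, with no gene of the 14 called. Of the 7 epithelial markers CLDN3 and CLDN4 were higher in replicates 5 to 8, by 4.01 and 3.04 (limma adjusted p = 0.013 and 0.022). The other 5 did not pass, at 0.38 for EPCAM, 0.12 for DSG1, -0.60 for CLDN7, -0.18 for CDH1 and -0.17 for KRT8. The list's mean ran from -1.57 to 1.36 and from -0.69 to 2.45. Of the 6 macrophage markers LYZ was lower, by -1.88 (limma adjusted p = 0.029), while the list's median difference was 0.12. The other 5 did not pass, at 0.55 for CD163, 0.30 for C1QA, 0.16 for CD14, 0.08 for AIF1 and -0.15 for TYROBP. The macrophage list's mean ran from -0.36 to 0.59 and from -0.91 to 1.34. The part of these markers in the SLC differences was not tested beyond the fits without arrays.

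Outside the members, 17 partners and regulators of SLC transporters were measured. The growth regulator MYC (0.72, limma adjusted p = 0.029) and TFRC rose, none fell, and the list's median difference was 0.11. Of 18 other membrane transporters, ABCF1, a member of the ABC family that works in translation, and UCP2, a carrier of the mitochondrial inner membrane, rose by 0.69 and 1.48 (limma adjusted p = 0.012 and 0.0061). AQP7, the channel through which adipocytes release glycerol, fell by 0.67 (adjusted p = 0.027). Of all 32097 probes 5.18% passed, 1.99% higher and 3.18% lower. Whether these short lists differ from those shares was not tested.

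No SLC probe passed the test between the lines. Of 144 probes 0 passed, as did 0% of all 32097 probes, and the smallest adjusted p of an SLC probe by limma was 1.0. At an unadjusted p under 0.05 there were 5 SLC probes (3.47%), against 3.68% of all probes. The median difference, low-RFI minus high-RFI, was -0.05 for SLC probes and 0.00 for all, and it was above 0 in 33.3% of SLC probes and 50% of all. The 95% interval lay within 2-fold for 126 of the 144 (87.5%) and within 1.5-fold for 93 (64.6%). Within replicates 1 to 4 alone 7 SLC probes were under an unadjusted p of 0.05 (4.86%, against 6.34% of all probes) and within replicates 5 to 8 alone 9 (6.25%, against 5.79%), and 0 passed adjustment in either.

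SLC5A4, a glucose sensor of the sodium-glucose cotransporter family in human and a sodium-coupled sugar transporter in pig, had the smallest p among SLC genes. Its difference was known before the members were chosen, so it is given as a description. Low-RFI pigs 1 to 8 had 0.43, 0.02, -0.26, 0.38, -0.37, 0.07, 0.00 and -0.08. High-RFI pigs 1 to 8 had 0.77, 0.65, 1.33, 0.85, 0.86, 0.05, 0.32 and 0.61. The lines overlapped through high-RFI replicates 6 and 7, and the other 6 high-RFI pigs lay above all low-RFI pigs. The difference was -0.66 (SE 0.16, 1.58-fold lower in low-RFI pigs, 95% interval -1.0 to -0.32, unadjusted p = 8.7e-04, limma adjusted p = 1.0). It was -0.76 (SE 0.20) in replicates 1 to 4 and -0.56 (SE 0.20) in replicates 5 to 8, and it was negative on 4 of 4 slides (-0.82 to -0.40).

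**Figure D4:**
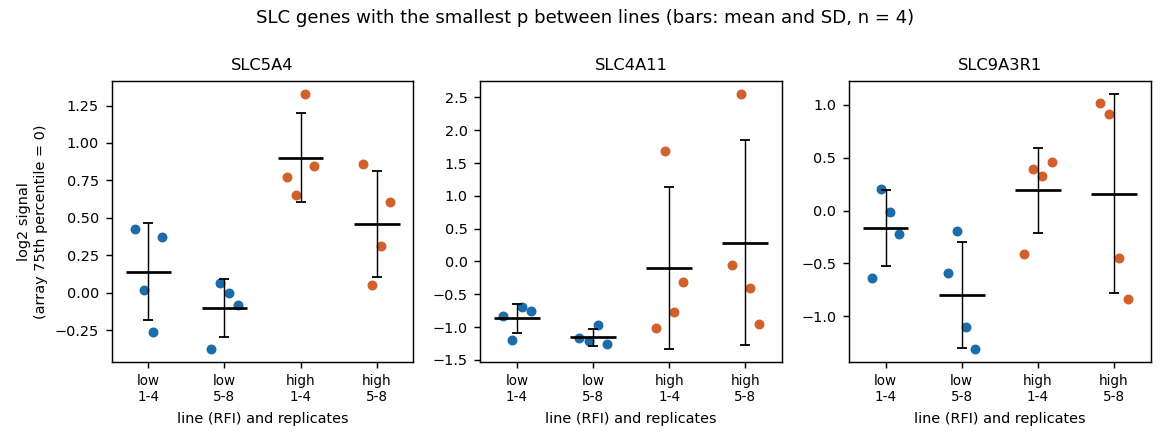
Panels plot the log2 signal of SLC5A4, SLC4A11 and SLC9A3R1 relative to the array's 75th percentile, with 1 point per pig, by line (low-RFI blue, high-RFI orange) and replicates 1-4 or 5-8, and bars for the mean and SD of 4 pigs. SLC5A4 was 0.66 lower in low-RFI pigs, and SLC4A11 was high in 2 high-RFI pigs only (1.69 and 2.55).

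The 3 SLC genes whose signal followed SLC5A4 most closely, over residuals from the 4 groups of line and replicate set on 16 arrays, were SLC30A2 (r = 0.52), SLC25A27 (r = 0.43) and SLC3A2 (r = 0.38). The same residuals within replicates 1 to 4 and 5 to 8 gave 0.33 and 0.69 for SLC30A2, 0.74 and 0.18 for SLC25A27, and 0.86 and -0.27 for SLC3A2, whose sign differed between the sets. High-RFI replicate 5 was far above the others for SLC30A2.

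SLC4A11, a membrane transporter best known from the cornea, ran from -1.26 over -1.07 to -0.70 in low-RFI pigs and from -1.02 over -0.35 to 2.55 in high-RFI pigs. High-RFI replicates 2 (1.69) and 6 (2.55) stood apart, and EPCAM was highest on the same arrays (-0.12 and 1.59, at most -2.93 elsewhere). Of the other epithelial markers, CDH1 was also highest there (-1.32 and 0.33), and KRT8 and DSG1 were highest on replicate 6 only. CLDN3 and CLDN4 were highest on high-RFI replicate 7 (3.12 and -0.25) and CLDN7 on high-RFI replicate 3 (-0.69). The difference was -1.10 (SE 0.44, unadjusted p = 0.022, limma adjusted p = 1.0). Without those 2 arrays, an exclusion chosen after seeing the data, it was -0.43 (SE 0.16), and the part of epithelial cells in it was not tested further. SLC9A3R1, the NHERF1 scaffold that anchors transporters to the cytoskeleton, differed by -0.66 (SE 0.28, unadjusted p = 0.033, limma adjusted p = 1.0). The next 7 genes by p were SLC15A2, SLC2A8, SLC9A3, SLC26A5, SLC24A2, SLC38A3 and SLC3A1, at 0.28, -0.25, 0.40, 0.25, 0.21, 0.38 and -0.35, with unadjusted p between 0.072 and 0.17. SLC15A2, SLC9A3, SLC26A5 and SLC24A2 turned negative under normexp background correction.

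No SLC probe passed the test of whether the line difference changed between replicate sets (0 of 144 and 0% of all probes by limma's interaction term, adjusted, and 5.56% and 6.81% at an unadjusted p under 0.05). SLC2A3, the glucose transporter GLUT3, had the smallest p. Its low-RFI values were -2.84, -3.40, -3.49 and -3.04 in replicates 1 to 4 and -4.19, -3.75, -3.76 and -3.82 in replicates 5 to 8, without overlap. In high-RFI pigs they were -3.72, -3.80, -4.24 and -3.63, then -3.34, -3.72, -3.75 and -4.10. The change in the line difference was -0.81 (SE 0.27, limma adjusted p = 0.70). SLC35D1, a nucleotide sugar transporter of the endoplasmic reticulum, and SLC38A3 changed by 1.40 (SE 0.49) and 1.16 (SE 0.43), both at an adjusted p of 0.71. SLC5A10, SLC30A2, SLC8A1, SLC30A7, SLC16A9, SLC26A11 and SLC10A7 followed, at -0.96, -1.39, -0.70, -0.27, -0.56, -0.74 and -0.36 (adjusted p = 0.72 to 0.78).

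Of the 6 genes with a standard deviation over 0.8, SLC38A4, SLC25A25 and SLC9A2 each had 1 pig far above the others, SLC4A11 had 2, and SLC17A4 and SLC7A11 were spread over several pigs of both lines. SLC38A4, a neutral amino acid transporter, was at -1.38 on low-RFI replicate 8 and at most -3.21 elsewhere. SLC25A25, a calcium-sensitive ATP-magnesium carrier, was at -3.00 on the same array and at most -4.60 elsewhere. The identical SLC38A3 probes were also highest there (-2.03 and -2.10), and so were ACTA1 (8.97) and MYH1 (2.53) of the muscle list. SLC9A2, a sodium-proton exchanger of epithelia, was at -2.48 on low-RFI replicate 2 and at most -4.34 elsewhere. Fewer cells of a type and less RNA per cell cannot be told apart in bulk tissue.

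**Figure D5:**
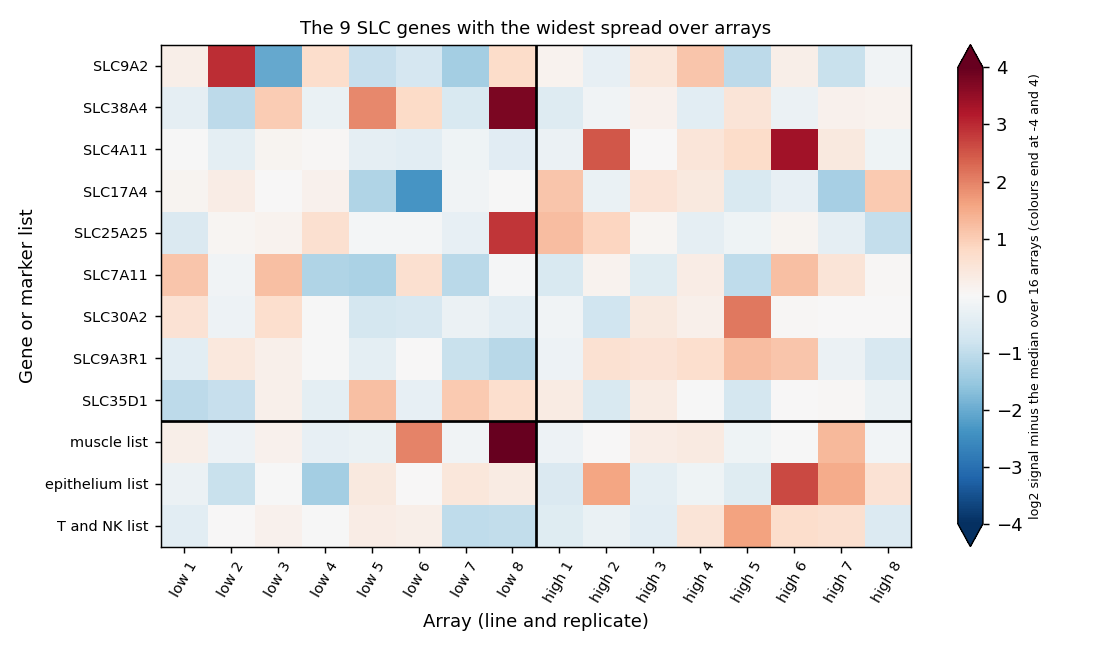
Colours give the log2 signal minus the median over 16 arrays for the 9 SLC genes with the largest standard deviation over arrays, a rule chosen after the values were seen, with the mean of the muscle, epithelium and T and NK marker lists below. SLC38A4 and SLC25A25 were high on low-RFI replicate 8 with the muscle list, and SLC4A11 was high on high-RFI replicates 2 and 6. The epithelium list was high on those arrays and also on high-RFI replicate 7.

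Covariation over arrays was taken from residuals of the 4 groups and is given as a description, since all genes share the same 16 arrays. Probes of 1 gene followed each other with a median r of 0.84 over 153 pairs, of which 88 exceeded 0.8. Many of these pairs came from SLC25A3 with 10 probes and SLC16A1 with 7, and 22 pairs share a run of at least 16 bases. For genes with 2 kept probes, r ran from -0.40 (SLC22A4) to 0.98 (SLC1A5). Probes of different genes had a median r of 0.02. The medians were 0.01 for 338 pairs of genes in 1 class and 0.02 for 2437 pairs across classes. The closest pair was SLC30A5 with SLC30A9 (r = 0.87, and 0.97 and 0.79 within replicates 1 to 4 and 5 to 8). Then came SLC27A2 with the zinc exporter SLC30A3 (r = 0.86), SLC22A2, an organic cation transporter, with SLC30A2 (r = 0.85), and SLC11A1 with SLC2A11 (r = 0.82). SLC27A3 followed the zinc transporters SLC39A7 (r = 0.82) and SLC30A1 (r = 0.80), and SLC4A2 followed the cationic amino acid transporter SLC7A2 (r = 0.80). The probes read as SLC2A11 and SLC4A2 share runs of 16 bases with probes of other names. Residual r between the 2 probes of a gene was -0.29 for SLC2A11, 0.07 for SLC4A2 and -0.07 for SLC11A1. It was 0.66 to 0.96 for SLC30A5, SLC30A9, SLC27A3 and SLC30A1. Among the probes of SLC27A2 it ran from 0.14 to 0.75, and among those of SLC39A7 from 0.09 to 0.79.

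Of 15 transporter pairs with a known physical or functional link, 6 were measured on both sides. None correlated over the 16 arrays after adjustment over the 6 (permutation tests of Pearson's r and Spearman's rho, two-sided), but under normexp correction 1 pair, not reported here, passed. SLC16A1 with BSG, the basigin chaperone that brings MCT1 to the surface, had r = 0.49 (permutation p = 0.052, adjusted 0.16) and rho = 0.41 (permutation p = 0.11, adjusted 0.45), with -0.08 and 0.76 within replicates 1 to 4 and 5 to 8. Without the 2 arrays farthest from the median of the first gene, r was 0.35 for SLC16A1 with BSG. SLC3A2, the heavy chain of amino acid exchangers, had r = -0.26 and rho = -0.31 with its light chain SLC7A7 (permutation p = 0.33 and 0.25) and r = -0.10 and rho = -0.04 with SLC7A11 (permutation p = 0.73 and 0.87). SLC30A1 with SLC39A1 had r = 0.17 and rho = 0.06 (permutation p = 0.53 and 0.82), and SLC9A3 with its scaffold SLC9A3R1 had r = 0.03 and rho = 0.14 (permutation p = 0.91 and 0.61). The SLC3A2 probe used is uncertain as to gene, and its residual r with the other SLC3A2 probe was 0.11. SLC7A11 and SLC9A3 were dim (means -5.59 and -4.79), which limits what their correlations can show.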

How the data were processed

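Per the labels' protocols, Cy3 dye was built into RNA copied from 150 ng of each pig's total RNA by T7 polymerase. The deposited processed intensities, per the file headers, were background-subtracted within each array by Agilent Feature Extraction 10.7.3.1 and not normalised between arrays, and the deposited mean and background intensities carried no correction. The submitters' processing notes list R 2.10.0. The deposited log2 value table was checked against the scanner intensities (r = 1 on each array, each column's median 0), and the rule that chose its spots is not given in the sources used here.

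Here, log2 processed intensity minus the array's 75th percentile over non-control spots was used. Outlier spots were left out and spots of a probe averaged. A probe was kept if well above background on at least 8 arrays with at least 6 values per line. No kept SLC value was missing or saturated. Precision is limited by the number of arrays. Tests of line, of replicate set (with line as a term) and of their interaction came from limma 3.58.1 (R 4.3.3), two-sided, with Benjamini-Hochberg adjustment over 32097 probes, after the procedure had been tested on simulated data. Pairs used 100000 permutations.

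The members, gene lists and tests were chosen with earlier results of these data known. A gene is shown by its kept probe of highest mean signal. Named are genes past the threshold or, if fewer than 10, those with the 10 smallest p as values only, the 2 best detected genes per class, SLC5A4 with its 3 closest genes, the measured pairs, and up to 3 passing members per direction of the 2 further lists. Genes named for spread, closest covariation, disagreeing probes, shared sequence or failed detection were chosen after their values were seen. IREB2 and FTH1 were named outside these rules. Gene names are those of the array files. For 117 member probes an accession was found in the RefSeq gene table of Sscrofa11.1 (names only), and all 117 named the same gene. A further 128 probes are described as solute carriers without an SLC name and were not analysed here. Of the 6 measured pairs, 1 is not reported here.

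Alternatives were quantile scaling, normexp correction with offset 50, the median as scale, stricter and no filters on dim probes, array weights, replicate and slide blocks, single slides, the deposited value table, and leaving out arrays.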

Additional observations from a re-analysis of the deposited data

Results flagged for a closer look

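In 5 of the 84 groups of 8 pigs (1 line for each of 42 named genes), 1 pig lay apart from the other 7 by more than Dixon's limit, which chance passes in about 1 in 20 groups. SLC1A5 reached 6.58 in high-RFI replicate 7, with the next pig at 6.08. SLC22A4 reached 0.98 in low-RFI replicate 4, with the next at 0.65. SLC30A2 reached -1.63 in high-RFI replicate 5, with the next at -3.35. That pig had the highest mean of the T and NK cell markers (1.60) and of the macrophage markers (1.34). SLC30A5 reached 2.37 in low-RFI replicate 2, with the next at 1.87. SLC41A2 was lowest in low-RFI replicate 8, the array with the highest muscle markers, at -1.49, with the next at -0.94. The part of other cell types in these values was not tested.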

How the results depend on the processing

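The count of SLC probes between lines and the count for its interaction with the replicate sets were 0 in every alternative, including the fits with a replicate block (0 and 0). Same-numbered pigs of the lines did not deviate together (r = -0.15 to 0.12), so numbers were not taken as pairs. Between replicate sets the 15 probes became 0 under normexp correction (17 probes in all), 7 with no filter on dim probes, 31 with array weights, and 0, 0, 0 and 0 within slides 1, 2, 3 and 4, where 2 pigs stood against 2. They became 5 to 28 with 1 array left out, 4 without the arrays high in EPCAM and CDH1, and 1 without the muscle-marker arrays. The other scalings, filters, blocks and the value table gave 12 to 18. Among these alternatives, the count over all probes is given for normexp only. Signs reversed under normexp, which moved the median of all probes by -0.12 between lines and 0.04 between replicate sets: SLC15A2 (-0.30), SLC9A3 (-0.21), SLC26A5 (-0.28) and SLC24A2 (-0.14) between lines, SLC23A2 (0.036) and SLC12A5 (0.031) between replicate sets. The cause was not tested. Under normexp 1 of the 6 pairs passed. SLC9A3 with SLC9A3R1 reversed under quantile scaling (r = -0.00055) and without low-RFI replicate 8 (r = -0.068), and SLC30A1 with SLC39A1 without low-RFI replicate 8 (r = -0.017) and without the 2 farthest arrays (r = -0.13). The 66 genes well above background on all 16 arrays and the 87 on at least 1 bound the 75 kept. Probes near background have the least certain differences, since their value rests on the subtracted background.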
